A study of Mus musculus with 9 samples.

Results

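Type I interferon response genes are genes that cells switch on when interferon alpha or beta binds its receptor. The set described here holds 44 mouse genes given by symbol, 44 of the 52661 gene rows in the deposited table, and every symbol matched a row through its Ensembl identifier. The filter on low counts left 42 of them among 18408 genes tested, and took out Oas2 and Rsad2. Expression was measured by RNA sequencing in 9 libraries of mouse embryonic fibroblasts, a connective tissue cell culture, of strain C57BL/6, immortalised with T/t antigen according to the labels. The 3 wild type libraries came from untreated cells with the copper importer Ctr1 (gene Slc31a1). The 3 Ctr1-null libraries came from untreated Ctr1 -/- cells, which the sample titles call FloxedCtr1. The 3 libraries of Ctr1-null cells with BCS came from Ctr1 -/- cells given bathocuproine disulfonic acid, an extracellular copper chelator, at 500 µM for 48 hours in the sample labels. The series record gives that dose in millimolar. No group of wild type cells with BCS was analysed here, so every treated library also lacked Ctr1. All cells grew in DMEM with modified N2, EGF and FGF-2. The labels do not say whether the libraries of a group came from separate cultures, so p-values measure only the spread between these libraries, which may be technical. A difference due to Ctr1 and a difference between cell lines cannot be told apart, and in RNA from whole cultures fewer expressing cells cannot be told apart from less RNA per cell.

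Cells detect foreign RNA or DNA with sensors such as RIG-I (Ddx58), MDA5 (Ifih1) and cGAS, which signal through kinases to the factors IRF3 and IRF7 and so switch on interferon genes. Secreted type I interferon binds IFNAR1 and IFNAR2, and the kinases JAK1 and TYK2 then activate STAT2. A complex that includes STAT2 and IRF9, ISGF3, binds the interferon-stimulated response element (ISRE) of target promoters. The targets include enzymes that destroy or edit viral RNA, proteins that trap viral particles, and the sensors and factors themselves. Fibroblasts both make and respond to interferon beta, and many of the targets are transcribed at a low level without added interferon.

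Some promoters of the set, but not all, hold the core of the sequence that ISGF3 reads. The core of the ISRE, GAAA followed by any 2 bases and again GAAA, was searched on both strands of RefSeq promoter windows (build GRCm38.p6) that run from 250 bases before to 50 bases after a start site. Windows were found for 32 of the 44 genes, and 16 of the 32 (50%) held the core in at least 1 window, against 3.99% of the 27025 genes in the table. A longer form, the same letters followed by CT, every match of which is also a match of the core, was present in 9 (28.1%), against 0.303% of all genes. The STAT dimer motif TTCNNNGAA was present in 9 (28.1%), against 9.55%. The following 60-base stretches upstream of the start site, written 5′ to 3′ on the gene's strand, show the core in capitals, either in that form or, where it lies on the other strand, as TTTC, any 2 bases and TTTC. They were chosen because their genes carry the results below (Isg15, Ifit1, Irgm1, Igtp) or show near-identical and neighbouring family members (Ifit3 and Ifit3b, Gbp2 and Gbp3).
Isg15: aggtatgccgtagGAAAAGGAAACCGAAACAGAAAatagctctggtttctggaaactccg
Ifit1: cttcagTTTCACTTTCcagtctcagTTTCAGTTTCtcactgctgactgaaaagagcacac
Irgm1: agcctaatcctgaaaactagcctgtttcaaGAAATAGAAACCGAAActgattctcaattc
Igtp: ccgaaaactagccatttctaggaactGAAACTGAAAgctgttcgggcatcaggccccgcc
Ifit3: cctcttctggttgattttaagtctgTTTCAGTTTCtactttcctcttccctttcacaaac
Ifit3b: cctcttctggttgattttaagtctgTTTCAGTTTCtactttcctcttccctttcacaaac
Gbp2: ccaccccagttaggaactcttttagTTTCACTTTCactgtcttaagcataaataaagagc
Gbp3: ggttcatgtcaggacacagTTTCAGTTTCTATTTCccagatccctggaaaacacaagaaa
The Isg15 stretch (chr4:156200850-156200909, minus strand) holds 3 overlapping cores in a row. The Ifit1 stretch (chr19:34640779-34640838, plus strand) holds 2 separate cores, and the Irgm1 stretch (chr11:48871421-48871480, minus strand) 2 overlapping ones. Igtp (chr11:58199496-58199555, plus strand) shows 1 core. The stretches of Ifit3 (chr19:34583382-34583441, plus strand) and Ifit3b (chr19:34607778-34607837, plus strand) are the same letters at both places. Gbp2 (chr3:142620579-142620638, plus strand) and Gbp3 (chr3:142559980-142560039, plus strand) share the motif but not the sequence around it. Oasl1, Ifit2 and Lgals3bp had windows without the core. The genes not matched to a window were Dhx58, Ifi27, Iigp1, Ly6e, Mx1, Mx2, Oas2, Parp14, Parp9, Rtp4, Usp18 and Zbp1. A match is a description of these letters and says nothing of binding in these cells.

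Library totals ranged from 38962036 to 57206337 estimated counts, so that 3 counts, the upper limit that a count of 0 allows, correspond to 0.0546 to 0.0811 CPM, the count scaled to a common library total. Such floors cover counting error only. Slc31a1 was at 54.8 to 56.1 CPM in wild type, 1.40 to 3.88 in Ctr1-null and 1.69 to 3.24 in Ctr1-null cells with BCS. Every library thus matched its genotype label. The groups without Ctr1 overlapped, so Slc31a1 does not check the BCS label. Of the fibroblast markers, Vim was at 4267 to 5830 CPM and Col1a1 at 1354 to 3109 CPM, whereas Thy1 was at 0.297 to 0.496 CPM and Dcn at 0.0372 to 2.31 CPM. The leukocyte markers Adgre1 and Tyrobp were at 0 in all 9 libraries, and Ptprc did not exceed 0.310 CPM. The first wild type library and the first Ctr1-null library stood apart from the others of their groups. Pdgfra was at 65.3 CPM in the first wild type library against 6.11 and 6.62 in replicates 2 and 3, and Col3a1 was at 11.1 CPM in Ctr1-null replicate 1 against 81.6 and 73.3. Results that rest on these libraries are given with and without them.

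Without added interferon the set spanned a wide range of levels. In all 9 libraries 16 of the 44 genes were at or above 10 CPM, 11 were below 1 CPM, and 17 lay between or crossed these limits. Per length of exon (TPM, computed from counts and merged exon length), the highest in wild type were Ly6e, a membrane protein held by a lipid anchor, at 128.2 ± 4.25 (SD, n = 3), and Ifit2, at 84.9 ± 18.4. Next came the dNTP hydrolase Samhd1, at 75.4 ± 2.08, and the virus-tethering protein Bst2, at 74.4 ± 1.71. The order of Ifit2, Samhd1 and Bst2 lay within their spread. The genes below 1 CPM included several that are usually strong indicators of an interferon response, namely Rsad2 (viperin), Mx1, Oas1a, Oas2, Oas3, Cmpk2 and Zbp1. Oas2 had 0 to 3 counts per library and Rsad2 had 0 to 12. The 21 interferon ligand genes together had 0 to 5 counts per library, and interferon beta itself, Ifnb1, had a single read, in wild type replicate 2. The set was thus measured in cells with almost no detectable interferon mRNA and with both receptor chains present. Ifnar1 was at 66.1 to 84.1 CPM and Ifnar2 at 30.5 to 38.6 CPM over the 9 libraries.

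**Figure D1:**
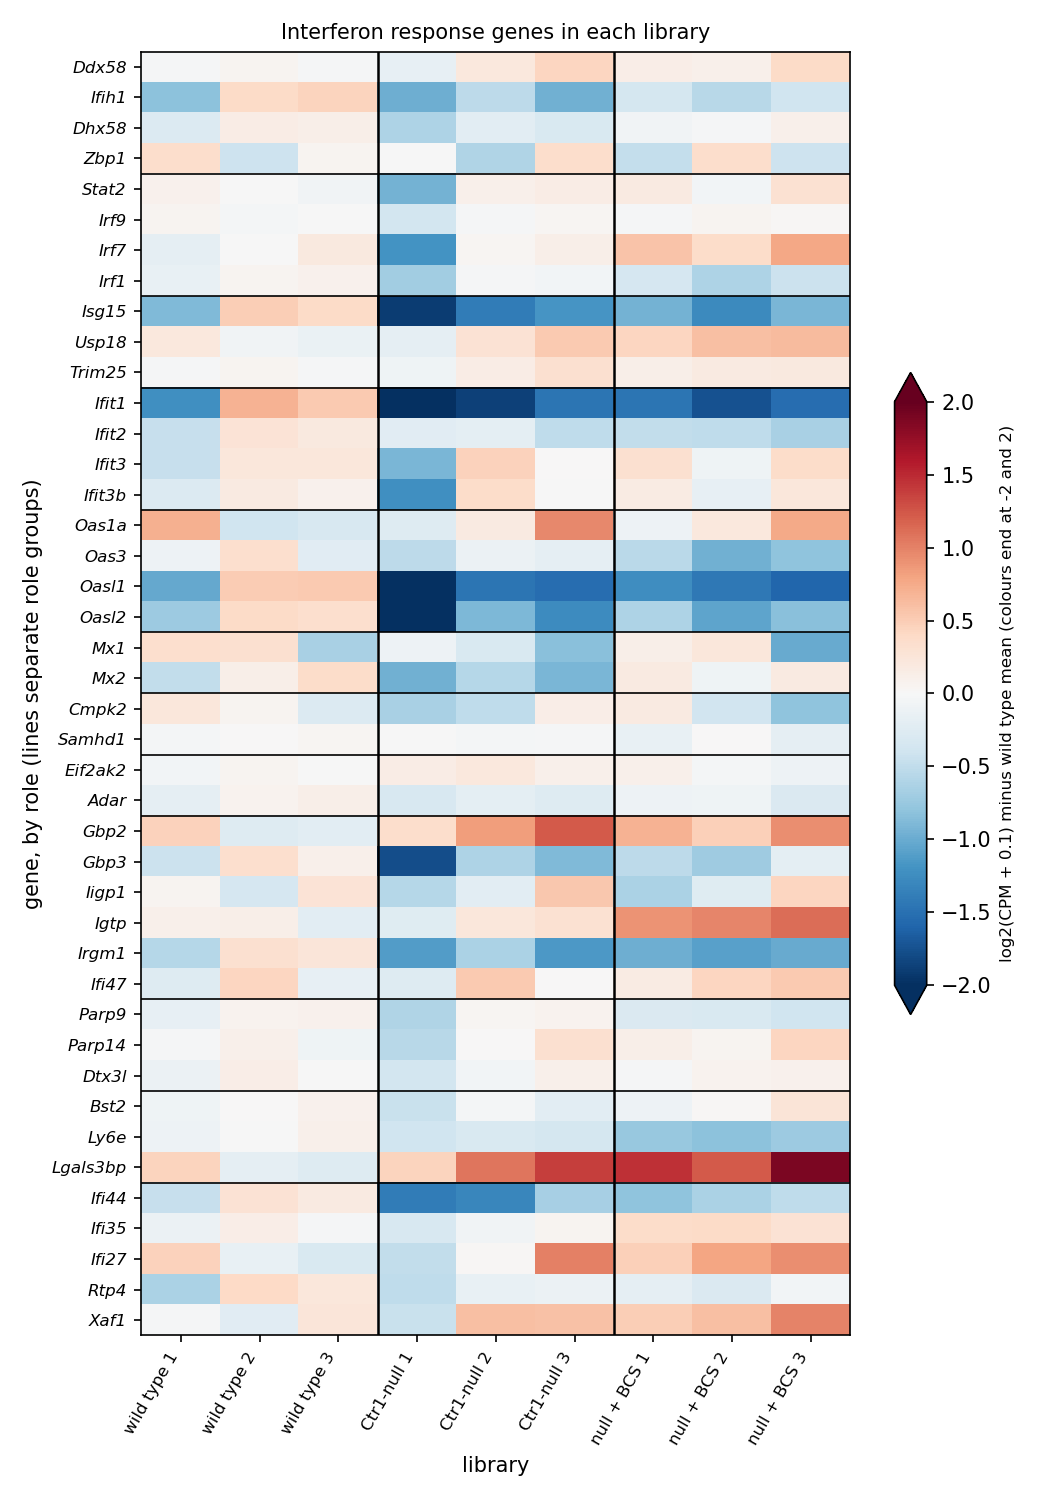
Each row is a gene, ordered by role, and each column a library; colour gives log2(CPM + 0.1) minus the mean of the 3 wild type libraries, ending at -2 and 2. The column of Ctr1-null replicate 1 is the lowest of its group for 36 of the 42 tested genes, and wild type replicate 1 differs from replicates 2 and 3 in Isg15, Ifit1, Ifih1 and Oasl1.

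The first comparison sets Ctr1-null cells against wild type and so bears on the importer. None of the 42 tested genes passed an adjusted p of 0.05 (edgeR quasi-likelihood test, Benjamini-Hochberg), where 0.0109% of all 18408 genes did. DESeq2 gave an adjusted p to 35 genes of the set and to 15141 in all. It called 8 of the set lower and 1 higher (25.7%, all genes 6.58%). At an unadjusted edgeR p under 0.05 were 13 of the 42 (31%, all genes 17.6%). Of these 11 were lower in Ctr1-null (26.2%, all genes 8.52%) and 2 higher (4.76%, all genes 9.08%). The lower genes were Ifih1, Isg15, Ifit1, Oasl1, Oasl2, Mx2, Adar, Gbp3, Irgm1, Ly6e and Ifi44, and the higher ones Gbp2 and Lgals3bp. Groups did not overlap for 10 genes in the lower direction (23.8%, all genes 8.62%) and for 2 in the higher (4.76%, all genes 9.49%). The median log2 fold change of the 42 was -0.16, with 31 negative and 11 positive, where the median of all genes was 0.01.

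Isg15 encodes a ubiquitin-like protein that is attached to other proteins and also secreted. In wild type its level was 4.68, 12.3 and 11.3 CPM for replicates 1, 2 and 3. It stood at 2.26, 3.24 and 3.78 CPM in Ctr1-null, and at 4.44, 3.54 and 4.58 CPM with BCS. All 6 libraries without Ctr1 were below all 3 wild type libraries, but wild type replicate 1 lay just above the highest of them. The log2 fold change of Ctr1-null against wild type was -1.61 ± 0.34 (SE, edgeR adjusted p = 0.0988). Its partners in the same pathway had other values. Usp18, the protease that removes ISG15 and damps the interferon receptor, had a log2 fold change of 0.24 ± 0.20 (adjusted p = 0.558), and Trim25, the ubiquitin ligase that activates RIG-I, had 0.14 ± 0.11 (adjusted p = 0.5).

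The IFIT proteins bind viral RNA and sit in a cluster on chromosome 19. Ifit1, which binds RNA with an unmethylated cap, was at 16.1, 61.8 and 54.7 CPM in wild type, at 4.58, 10.3 and 13.8 CPM in Ctr1-null, and at 13.7, 11.3 and 13.1 CPM with BCS. Its log2 fold change in Ctr1-null was -2.21 ± 0.49 (edgeR adjusted p = 0.0992), with no overlap between the groups. Ifit2, of the same cluster, was at 76.4, 128 and 120 CPM in wild type, at 90.7, 92.4 and 74.2 CPM in Ctr1-null, and at 75.4, 74.5 and 67.4 CPM with BCS. Here wild type replicate 1 fell among the Ctr1-null libraries, and the log2 fold change was -0.34 ± 0.17 (adjusted p = 0.34). Ifit3 ranged from 21.3 to 34.3 CPM in wild type, from 15.5 to 40.5 CPM in Ctr1-null and from 27.6 to 37.6 CPM with BCS, and all 3 groups overlapped. The longest coding transcripts of Ifit3 and Ifit3b were 98% identical over 1697 aligned bases, so reads could be split between them and their separate counts are uncertain. The identical promoter stretches printed above belong to the same pair.

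The oligoadenylate synthetase family senses double-stranded RNA. Oasl1, a family member without synthetase activity that is known to limit translation of Irf7, was at 2.79, 8.27 and 8.40 CPM in wild type, at 1.01, 2.03 and 1.96 CPM in Ctr1-null, and at 2.40, 2.10 and 1.87 CPM with BCS. As for Isg15, no library without Ctr1 reached wild type replicate 1. Its log2 fold change in Ctr1-null was -1.96 ± 0.41 (edgeR adjusted p = 0.0988). Oasl2 was at 1.66, 3.70 and 3.57 CPM in wild type, at 0.397, 1.45 and 1.11 CPM in Ctr1-null and at 1.80, 1.31 and 1.53 CPM with BCS. Its log2 fold change in Ctr1-null was -1.59 ± 0.44 (adjusted p = 0.141), and with BCS the range overlapped wild type. Oas1a and Oas3 stayed below 1 CPM, and Oas1a had a log2 fold change of 0.36 ± 0.52 (adjusted p = 0.745).

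The large GTPases of the response attack vesicles that hold microbes. Irgm1, which regulates the other immunity-related GTPases, was at 37.3, 69.4 and 65.4 CPM in wild type, at 25.5, 35.8 and 24.9 CPM in Ctr1-null, and at 28.0, 26.1 and 27.5 CPM with BCS. Its log2 fold change in Ctr1-null was -0.998 ± 0.22 (edgeR adjusted p = 0.0992), without overlap. Within the guanylate binding proteins the pair of neighbours on chromosome 3 had opposite signs. Gbp3 was at 1.31, 2.30 and 1.93 CPM in wild type and at 0.456, 1.14 and 0.929 CPM in Ctr1-null, a log2 fold change of -1.12 ± 0.34 (adjusted p = 0.158). Gbp2 was at 2.95, 1.76 and 1.82 CPM in wild type and at 2.72, 3.88 and 5.08 CPM in Ctr1-null, a log2 fold change of 0.83 ± 0.28 (adjusted p = 0.187), with overlapping groups. Mx2, a dynamin-like GTPase annotated as a polymorphic pseudogene, stayed below 1 CPM, at 0.478 to 0.948 CPM in wild type and 0.317 to 0.446 CPM in Ctr1-null. Its log2 fold change was -1.01 ± 0.30 (adjusted p = 0.149).

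Among the sensors, Ifih1 was at 18.9, 43.6 and 45.5 CPM in wild type and at 17.1, 23.4 and 17.1 CPM in Ctr1-null. Wild type replicate 1 again lay inside the Ctr1-null range, and the log2 fold change was -0.91 ± 0.28 (edgeR adjusted p = 0.164). Ddx58 and Dhx58, which encode RIG-I and its relative LGP2, had 0.18 ± 0.14 (adjusted p = 0.526) and -0.39 ± 0.18 (adjusted p = 0.287). The factors Stat2, Irf9, Irf7 and Irf1 had log2 fold changes between -0.26 and -0.11, with overlapping groups. Of these the smallest p belonged to Irf1, which activates antiviral genes without STAT proteins, at -0.24 ± 0.17 (adjusted p = 0.485). The RNA editor Adar was at 44.4 to 54.8 CPM in wild type and 40.6 to 44.3 CPM in Ctr1-null, with -0.26 ± 0.10 (adjusted p = 0.221). Adar shares 1365 of its 8118 exon bases with Chrnb2 on the opposite strand, so unstranded reads there could come from either gene. The kinase Eif2ak2 (PKR), which stops translation on double-stranded RNA, had 0.15 ± 0.08 (adjusted p = 0.322). Ifi44, a cytoplasmic protein of the response, was at 0.395, 0.730 and 0.669 CPM in wild type and 0.159, 0.174 and 0.331 CPM in Ctr1-null, with -1.42 ± 0.36 (adjusted p = 0.124). Parp9 had -0.14 ± 0.17 (adjusted p = 0.701). It shares 458 of its 4872 exon bases with Dtx3l on the opposite strand, so unstranded reads within these bases could belong to either. Cmpk2, a mitochondrial nucleotide kinase, had -0.51 ± 0.54 (adjusted p = 0.643) at less than 0.23 CPM in every library.

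Leaving out wild type replicate 1, the wild type library nearest to Ctr1-null in many of these genes, moved the comparison across the threshold for much of the transcriptome. In that fit 17.3% of all genes were called, and of the 42 genes 12 were called lower and 2 higher (33.3%). Isg15 then had a log2 fold change of -1.93 (edgeR adjusted p = 0.00104), Ifit1 -2.61 (adjusted p = 0.00176), Oasl1 -2.32 (adjusted p = 0.00123), Irgm1 -1.23 (adjusted p = 0.00133) and Ifih1 -1.22 (adjusted p = 0.00123). Wild type replicates 2 and 3 differed by over 2-fold in none of the 42 genes (1.88% of all genes). Replicate 1 was over 2-fold lower than replicate 2 in 6, where 1.49% of all genes were, and over 2-fold higher in 1. In either direction this was 16.7% of the set and 8.56% of all genes. Which of the wild type libraries represents these cells was not tested. Leaving out Ctr1-null replicate 1 gave no call in the set (0.0106% of all genes) and a median of -0.01 for the set. Leaving out both first libraries gave 12 lower and 3 higher (35.7%, all genes 29.3%) and a median of -0.04.

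**Figure D2:**
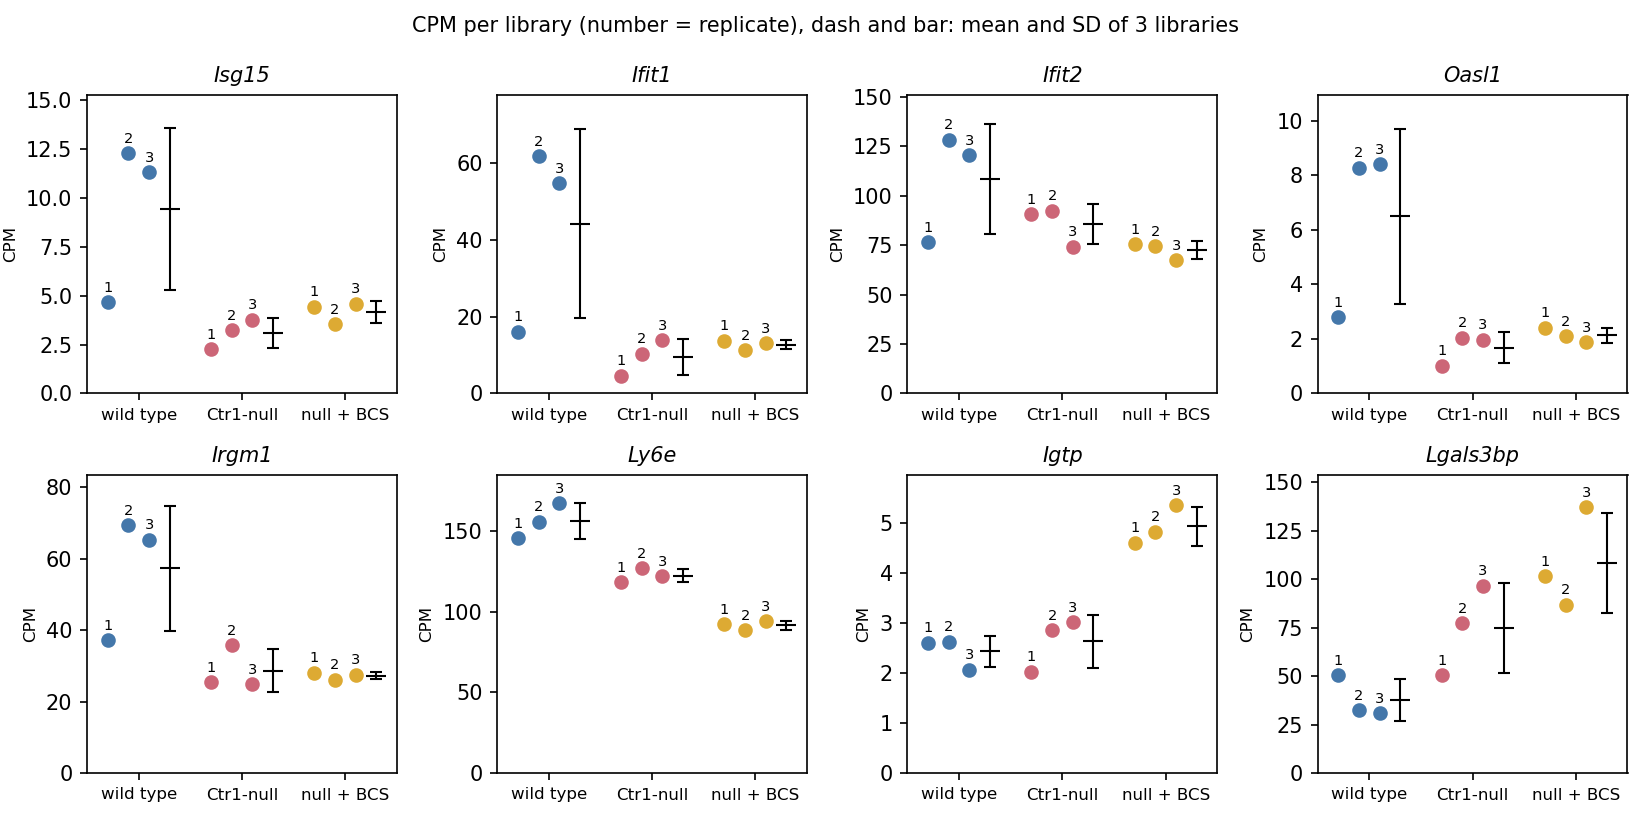
CPM (y axis, linear from 0) of the 8 genes called in Ctr1-null cells with BCS against wild type; points are libraries numbered by replicate, and the dash and bar beside them are the mean and SD of the 3. In Isg15, Ifit1, Oasl1 and Irgm1 wild type replicate 1 sits apart from replicates 2 and 3 and next to the Ctr1-null libraries, whereas Ly6e steps down from wild type (146 to 168) to Ctr1-null (118 to 127) to BCS (88.7 to 94.2) with no overlap.

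Ctr1-null cells with BCS against Ctr1-null asks what the chelator does where the importer is already missing. None of the 42 genes was called by edgeR at an adjusted p of 0.05 (0.0543% of all genes). At an unadjusted p under 0.05 were 6 (14.3%, all genes 14.7%). Ly6e was lower (2.38%, all genes 6.37%) and Irf7, Mx2, Igtp, Ifi35 and Bst2 were higher (11.9%, all genes 8.34%). DESeq2 called Ly6e lower and Igtp and Ifi35 higher, of 35 genes of the set with an adjusted p (8.57%, all genes 4.26% of 14482). Groups did not overlap for 7 genes (16.7%, all genes 24.3%), 2 lower (4.76%, all genes 10.9%) and 5 higher (11.9%, all genes 13.4%). Ly6e was at 118, 127 and 122 CPM in Ctr1-null and 92.3, 88.7 and 94.2 CPM with BCS, a log2 fold change of -0.42 ± 0.07 (edgeR adjusted p = 0.0834) with a 95% interval from -0.58 to -0.26. Igtp, an immunity-related GTPase also known as Irgm3, was at 2.02, 2.85 and 3.02 CPM in Ctr1-null and 4.60, 4.83 and 5.36 CPM with BCS, a log2 fold change of 0.91 ± 0.19 (adjusted p = 0.0952). All 3 treated libraries were above all untreated ones for Igtp and below them for Ly6e.

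The other genes named in that comparison did not pass the test either. Mx2 was at 0.317, 0.446 and 0.331 CPM in Ctr1-null and 0.819, 0.663 and 0.817 CPM with BCS, back within the wild type range, with a log2 fold change of 1.06 ± 0.29 (edgeR adjusted p = 0.177). Ifi35, a partner of the protein NMI, was at 11.04, 13.2 and 14.4 CPM against 17.96, 18.1 and 17.01 CPM with BCS, with 0.46 ± 0.12 (adjusted p = 0.15). Irf7, the factor that amplifies interferon production, was at 0.694, 1.76 and 1.86 CPM against 2.58, 2.23 and 2.99 CPM with BCS, with 0.85 ± 0.33 (adjusted p = 0.273). These 3 genes had no overlap between groups, and Irf7 was lowest in Ctr1-null replicate 1. Bst2 had 0.29 ± 0.13 (adjusted p = 0.331), Dhx58 0.38 ± 0.18 (adjusted p = 0.353) and Eif2ak2 -0.17 ± 0.08 (adjusted p = 0.35). The median of the 42 genes was 0.26, with 30 positive and 12 negative, against 0.00 over all genes. Without Ctr1-null replicate 1 that median was 0.03, so it rests on this library.

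The same library was low across the set. Relative to the wild type mean, the mean log2 value of the 42 genes was -0.69 in Ctr1-null replicate 1, against -0.17 and -0.10 in replicates 2 and 3 and between -0.14 and -0.03 in the BCS libraries. In wild type replicates 1, 2 and 3 it was -0.16, 0.11 and 0.05. Ctr1-null replicate 1 was the lowest library of its group for 36 of the 42 genes (85.7%, all genes 41.4%) and the lowest of all 9 for 27 (15.2% of all genes). It was over 2-fold lower than replicate 2 in 8 genes (19%, all genes 3.07%) and over 2-fold higher in none. In either direction 4.21% of all genes differed by over 2-fold between these 2 libraries. Replicates 2 and 3 did not differ by 2-fold in any of the 42. Stat2, a subunit of ISGF3, was at 25.3 CPM in this library against 52.0 and 54.1 in replicates 2 and 3. Oasl2 was at 0.397 CPM against 1.45 and 1.11. Ifit1 was at 4.58 CPM against 10.3 and 13.8. Not every gene followed, since Samhd1 was at 221 CPM against 217 and 217, Eif2ak2 at 61.4 CPM against 64.7 and 59.6, and Ifit2 at 90.7 CPM against 92.4 and 74.2.

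The drop in Ctr1-null replicate 1 was present in genes with and without the promoter motif. Among the 15 tested genes whose window held the core, its log2 value minus the mean of replicates 2 and 3 had a median of -0.61 and was negative in 15. Among the 16 tested genes with a window but no core the median was -0.43, with 14 negative. The sizes of these 2 sets were not compared by a test. Ifit3b, with the motif, had -1.41, and Oasl2 had -1.47. In the same library Col1a2 was at 838 CPM against 1524 and 1387, and Col3a1 was low as given above. Of the other fibroblast markers, Col1a1, Pdgfrb and Dcn were also lowest of the group in this library. Vim was highest in it, at 5296 CPM against 5127 and 4910, and S100a4, Pdgfra, Thy1 and Lum lay between replicates 2 and 3. The summed CPM of 10 leukocyte markers was 16.4 in Ctr1-null replicate 1, against 20.5 and 22.4 in replicates 2 and 3. The part of these differences in the result was not tested.

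**Figure D3:**
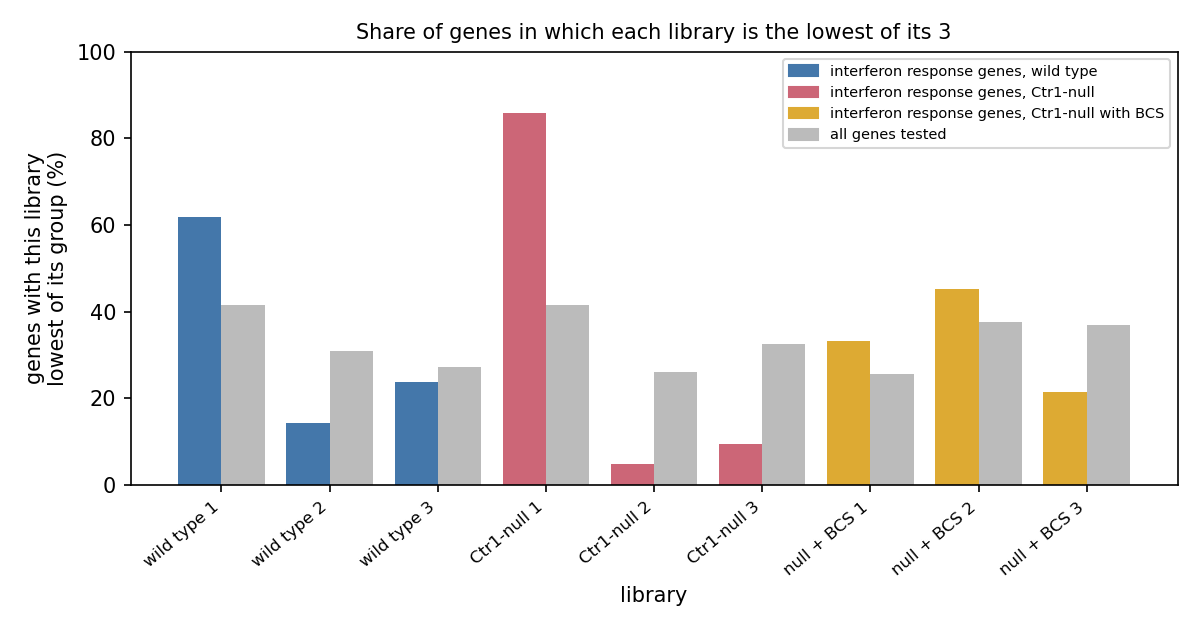
For each library, the coloured bar gives the percentage of the 42 tested interferon response genes, and the grey bar the percentage of all 18408 tested genes, in which it is the lowest of the 3 libraries of its group (y axis from 0). Ctr1-null replicate 1 reaches 85.7% against 41.4% of all genes and wild type replicate 1 reaches 61.9% against 41.6%, while the BCS libraries lie between 21.4% and 45.2%.

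Ctr1-null cells with BCS against wild type combines the missing importer and the chelator. It shares the wild type libraries with the first comparison and the treated libraries with the second. Of the 42 genes, 8 were called (19%, all genes 15.8%), with 6 lower in treated cells (14.3%, all genes 7.28%) and 2 higher (4.76%, all genes 8.56%). The lower genes were Isg15, Ifit1, Ifit2, Oasl1, Irgm1 and Ly6e, and the higher ones Igtp and Lgals3bp. At an unadjusted p under 0.05 were 15 (35.7%, all genes 32.9%), 9 lower (21.4%, all genes 15.9%) and 6 higher (14.3%, all genes 17%). Groups did not overlap for 20 genes (47.6%, all genes 37.1%), 10 lower (23.8%, all genes 17.1%) and 10 higher (23.8%, all genes 20%). The median log2 fold change of the set was -0.01, with 22 negative and 20 positive, against 0.01 over all genes. Scaled by library size alone, 4 genes were called lower and 3 higher, while over all genes the split moved from 1340 lower and 1576 higher to 784 lower and 2064 higher.

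Ly6e gave the smallest p of the set. It is known as an interferon-induced surface protein that blocks fusion by coronaviruses. It was at 146, 156 and 168 CPM in wild type and 92.3, 88.7 and 94.2 CPM with BCS, and the untreated Ctr1-null libraries at 118, 127 and 122 CPM lay between. The log2 fold change was -0.77 ± 0.07 (edgeR adjusted p = 0.00199, 95% interval -0.93 to -0.61), lower in 3 of 3 libraries, and against wild type the untreated cells had -0.35 ± 0.07 (adjusted p = 0.0939). Ly6e was called in all 20 alternative fits of this comparison, with log2 fold changes from -0.83 to -0.67.

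For Isg15 the treated libraries (3.54 to 4.58 CPM) lay below wild type (4.68 to 12.3 CPM) with a log2 fold change of -1.17 ± 0.33 (edgeR adjusted p = 0.0422). Ifit1 had -1.80 ± 0.48 (adjusted p = 0.035), Oasl1 -1.61 ± 0.41 (adjusted p = 0.0287), Irgm1 -1.07 ± 0.22 (adjusted p = 0.0156) and Ifit2 -0.58 ± 0.17 (adjusted p = 0.0497). For all 5 genes wild type replicate 1 was the wild type library closest to the treated ones. In the 9 fits that leave out 1 library each, the calls were made in 3 for Isg15, 3 for Ifit1, 1 for Ifit2, 4 for Oasl1 and 5 for Irgm1. With limma-voom or with the replicate number as a block, Isg15, Ifit1, Ifit2 and Oasl1 were not called (adjusted p from 0.0533 to 0.0849), and Irgm1 and Ly6e were the lower genes that stayed called. None of these 5 was called without wild type replicate 2 (adjusted p from 0.0625 to 0.178), without wild type replicate 3 (0.0671 to 0.172), or without the first (0.0558 to 0.115) or the third BCS library (0.0647 to 0.165). Without wild type replicate 1 the values were -1.50 for Isg15 (edgeR adjusted p = 0.0014), -2.20 for Ifit1 (adjusted p = 0.00198), -1.98 for Oasl1 (adjusted p = 0.00121) and -0.79 for Ifit2 (adjusted p = 0.00133).

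The 2 genes called higher were Lgals3bp and Igtp. Lgals3bp, a secreted glycoprotein that binds galectins, was at 50.4, 32.5 and 30.9 CPM in wild type, at 50.5, 77.3 and 96.7 CPM in Ctr1-null, and at 102, 86.8 and 137 CPM with BCS. The log2 fold change with BCS was 1.52 ± 0.27 (edgeR adjusted p = 0.0101), and that of untreated Ctr1-null cells 0.98 ± 0.27 (adjusted p = 0.141). Here wild type replicate 1 and Ctr1-null replicate 1 had nearly the same value. Igtp was at 2.60, 2.62 and 2.06 CPM in wild type and 4.60, 4.83 and 5.36 CPM with BCS, with 1.02 ± 0.19 (adjusted p = 0.0111). In untreated cells it had 0.12 ± 0.19 against wild type (adjusted p = 0.772). Lgals3bp stayed called in 8 of the 9 fits with a library left out, the exception being wild type replicate 3 (adjusted p = 0.0505). Igtp stayed called in 7, the exceptions being wild type replicate 3 (adjusted p = 0.056) and the third BCS library (adjusted p = 0.0507). Exons of Igtp overlap those of Irgm2 by 162 bases on the same strand, so some reads could belong to either. Irgm2 had 0.84 ± 0.31 in the same comparison (adjusted p = 0.0921).

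**Figure D4:**
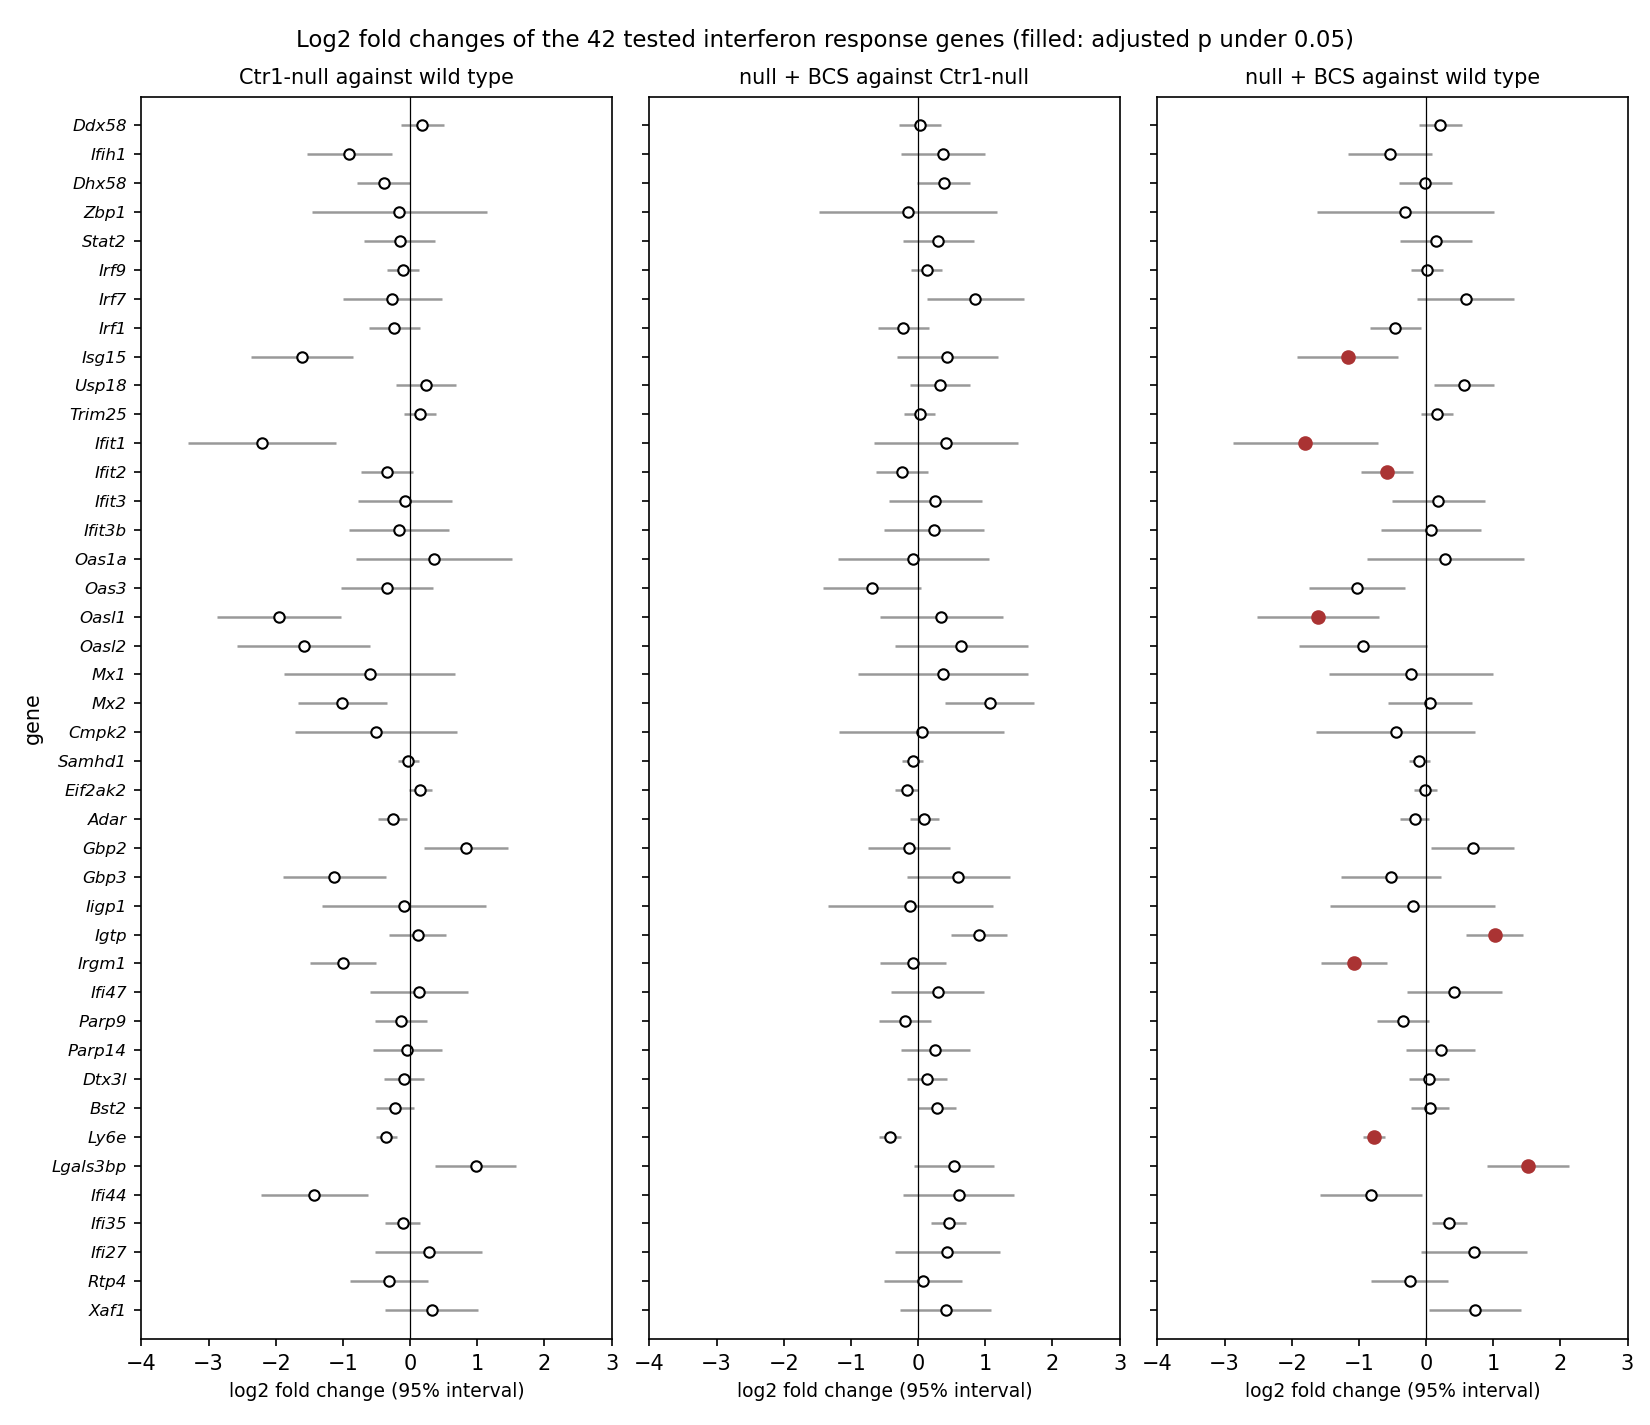
Log2 fold changes (points) with 95% intervals (lines) of the 42 tested genes, ordered by role, in the 3 comparisons; filled red points passed an adjusted p of 0.05. No point is filled in the first or second panel, and 8 are in the third, 6 to the left of 0 and 2 to the right.

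Genes upstream and downstream of the set were counted in 5 further lists. No member of any list was called by edgeR in Ctr1-null against wild type or in BCS against Ctr1-null. In the first of these, 1 of 10 receptors and Janus kinases, 9 of 16 induction genes, 4 of 14 negative regulators and 11 of 34 other induced genes had an unadjusted p under 0.05 (17.6% of all genes), and in the second 1, 4, 1 and 3 (14.7% of all genes). The 11 other induced genes in Ctr1-null against wild type were 6 lower and 5 higher (8.52% and 9.08% of all genes). The median log2 fold change of the 34 was 0.04, with 16 negative and 18 positive. The receptor and kinase list had no call in BCS against wild type either, where 3 had an unadjusted p under 0.05 (32.9% of all genes). Of 16 genes of the induction pathway, 4 fell and 4 rose in treated cells against wild type, where 7.28% of all genes were called lower and 8.56% higher. Those that fell were Tmem173 (STING, the receptor for the second messenger made by cGAS) by 0.60 on the log2 scale (adjusted p = 0.00846), Cgas itself by 0.78 with overlapping groups (adjusted p = 0.0433), the kinase Tbk1 by 0.34 (adjusted p = 0.0244) and Zcchc3, a helper of cGAS, by 0.61 (adjusted p = 0.0134). Those that rose were the factor Irf5 at 2.03 (adjusted p = 0.0203), the kinase Ikbke at 0.71 (adjusted p = 0.0345), and the Toll-like receptor adaptors Ticam1 at 0.44 (adjusted p = 0.014) and Myd88 at 0.29 (adjusted p = 0.0422).

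Tmem173 was at 44.9, 43.4 and 46.2 CPM in wild type, at 28.9, 38.5 and 34.8 CPM in Ctr1-null and at 29.4, 30.2 and 29.2 CPM with BCS. Its 3 wild type libraries were alike, unlike those of Ifit1 or Isg15. Irf5 was at 2.33, 0.730 and 0.706 CPM in wild type and 5.33, 4.51 and 5.60 CPM with BCS, with wild type replicate 1 again closest to the cells without Ctr1. Of 14 negative regulators, 1 was called lower and 2 higher, against the same shares of all genes: the RNase H subunit gene Rnaseh2a was called lower, at -0.53 (edgeR adjusted p = 0.0435), and Pias1, at 0.43 (adjusted p = 0.0258), and Nlrx1, at 1.06 (adjusted p = 0.0312), higher. Of 42 other interferon-induced genes 34 were tested, and 6 were called higher and 0 lower, where 8.56% and 7.28% of all genes were. At an unadjusted p under 0.05 were 11 higher (17% of all genes) and 4 lower (15.9% of all genes). The called genes include Uba7 and Ube2l6, the activating and conjugating enzymes for ISG15, with Parp10, Phf11d and Lgals9. Uba7 had 1.32 (adjusted p = 0.0435), Ube2l6 0.89 (adjusted p = 0.021) and Parp10, an ADP-ribosyltransferase, 0.93 (adjusted p = 0.00527). Herc6, the ligase that attaches ISG15 in mouse, had -0.18 ± 0.10 (edgeR adjusted p = 0.228).

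Markers of other cells were read beside these values, mainly those of leukocytes. Of the epithelial markers, Krt19 was at 125.5 to 192.9 CPM over the 9 libraries, and Epcam at 0.208 CPM or less. Of the endothelial markers, Kdr was at 11.03 to 28.85 CPM, and Cdh5 at 0.0546 CPM or less. Pecam1 was at 2.675 CPM in the first BCS library and did not exceed 0.409 CPM in any other. The summed CPM of the leukocyte markers was 11.2 to 19.2 in wild type, 16.4 to 22.4 in Ctr1-null and 19.3 to 26.9 with BCS, most of it Cd68 and Cd14. Cd68 was at 11.5, 5.24 and 5.65 CPM in the wild type libraries. Its Ctr1-null values were 8.35, 13.9 and 16.4 CPM, and with BCS they were 16.6, 11.6 and 20.7 CPM. Csf1r was at 0.135 to 0.707 CPM in wild type, 0.734 CPM or more in Ctr1-null and 0.606 to 1.04 CPM with BCS. Other markers of the list went both ways in BCS against wild type. Log2 fold changes were -0.22 for Ptprc (edgeR adjusted p = 0.71), -0.10 for Cd14 (adjusted p = 0.759) and 0.15 for Fcer1g (adjusted p = 0.852). Among markers with too few reads to be tested, Itgam and Aif1 were lower without overlap in CPM, but their counts met. Itgam had 3 to 5 counts with BCS against 5 in each wild type library, and Aif1 had 0 to 1 against 1 to 2. Lyz2, also untested, was higher without overlap, at 0.127 to 0.179 CPM with BCS against 0.0270 to 0.0929 CPM in wild type. The part of these markers in the result was not tested, while Adgre1 and Tyrobp were at 0 in every library.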

How the data were processed

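Estimated counts per gene, whole numbers as deposited by the authors and not normalised, were used for all tests, and their table is named for Salmon and tximport. A second table the authors deposited holds a scaled signal, the counts divided by factors whose origin is not given in the sources used here, and these factors served as an alternative only. GRCm38, STAR, Salmon, DESeq2 and FastQC are listed in the submitters' processing notes, without versions or roles. Per the labels' protocols, libraries were made with an Illumina TruSeq RNA kit, which does not mark strand. Quantification spreads reads over near-identical and overlapping genes.

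Identifiers were matched to GENCODE M21 (52566 of 52661 rows). Counts were TMM-scaled, filtered (filterByExpr, minimum count 10, minimum total 15) and fitted in edgeR 4.0.16 (R 4.3.3) over 9 libraries and 3 groups with 6 residual degrees of freedom (common biological coefficient of variation 0.169). The 2-sided quasi-likelihood p-values were adjusted by Benjamini and Hochberg over 18408 genes, with a threshold of 0.05. A standard error is the size of the fitted log2 fold change over the root of its F statistic. Alternatives used DESeq2 1.42.0, limma 3.58.1, other scalings, other filters, a replicate block and omission of libraries. The fit was tested on simulated data. Figures used matplotlib 3.10.9 in Python 3.11.15.

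The genes and lists were chosen with earlier results of these data known. Named genes were those called, at most 8 per comparison with the smallest p, or the 8 with the smallest p where fewer than 4 were called, plus the smallest p of each role group in Ctr1-null against wild type and 2 genes of each further list. The other genes given with values were named after their values were seen. Same-numbered libraries had correlations of their deviations from -0.368 to 0.320, so the numbers were not taken to pair them. The values of 2 genes of the further lists are not reported here.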

Additional observations from a re-analysis of the deposited data

How the results depend on the processing

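Each of the 3 comparisons was refitted under 20 alternatives, of which leaving out the first wild type and the first Ctr1-null library together was chosen after seeing the data. None of the called fold changes reversed under these. Percentages are of the genes with an adjusted p in each fit. For Ctr1-null against wild type, calls lower and higher were 4 and 1 with no filter on low counts (11.4%, all genes 0.759%), 8 and 1 with DESeq2 (25.7%, all genes 6.58%), 12 and 3 without both first libraries (35.7%, all genes 29.3%), and ranged from 0 to 12 and from 0 to 2 over fits with 1 library left out, where every call came without wild type replicate 1 (33.3%, all genes 17.3%). For BCS against Ctr1-null, DESeq2 called 1 lower (Ly6e) and 2 higher (Igtp and Ifi35) (8.57%, all genes 4.26%). Omission of 1 library gave 0 to 1 lower and medians of the set from 0.025 to 0.31. The 1 call, Ly6e, came without wild type replicate 1 (2.38%, all genes 0.972%). Omission of both first libraries gave 1 lower (2.38%, all genes 1.3%) and a median of 0.034. For BCS against wild type, limma-voom (9.52% of the set in all, all genes 16.4%) and the replicate block (9.52%, all genes 8.38%) each called 2 lower, Irgm1 and Ly6e, omission of 1 library gave 1 to 11 lower and 0 to 5 higher, and omission of both first libraries gave 15 lower and 7 higher (52.4%, all genes 39.2%). The share of all genes called moved with these counts, from 3.01% without wild type replicate 3 to 31% without wild type replicate 1 and 39.2% without both first libraries. The cause was not tested. The replicate number as a block gave 1543 called genes for BCS against wild type. It gave 0 calls in the set for Ctr1-null against wild type (0.00543% of all genes) and for BCS against Ctr1-null (0.0109% of all genes). In 5 of 18 pairings of a library with another group the correlation was highest for its own number. The longer motif was present in 9 promoters. Depth limits the 11 genes below 1 CPM, of which Oas2 and Rsad2 were not tested.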
